A study of Mus musculus with 10 samples.

Results

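The genes described here are 10 transcripts of the unfolded protein response and the integrated stress response, taken by symbol from the 31285 genes of a deposited expression table. They are Atf4, Ddit3, Ppp1r15a, Trib3, Asns and Chac1 of the ATF4 branch, and Hspa5, Xbp1, Herpud1 and Dnajb9 of the endoplasmic reticulum (ER) branch. Each symbol matched 1 row, and all 10 passed the filter on low values. RNA sequencing was done on inguinal (subcutaneous) white fat of mice aged 20 months, fed regular chow, with 5 libraries labelled Flox and 5 labelled GHR Knockdown. The series names the latter mice Ad-GHRKO, for a knockout of the growth hormone receptor restricted to adipose tissue. The labels do not name the Cre driver, the sex or the strain, and the name Flox points to mice that carry the floxed allele. They do not state that each library is a separate animal, so each p-value reflects only how far these libraries spread, and that spread may be technical.

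Cells answer misfolded protein in the ER through membrane sensors. IRE1 splices the Xbp1 message, ATF6 is cleaved to a transcription factor, and both raise the chaperones and degradation factors of the ER. PERK, like the kinases that sense amino acid shortage, viral RNA or heme shortage, phosphorylates the translation factor eIF2 alpha. General translation then slows while ATF4 protein is made, and ATF4 drives genes of amino acid supply, of feedback and, with CHOP (Ddit3), of cell death. Adipocytes secrete much protein, and this stress response in fat is known mainly from obesity. Gene-level values cannot show eIF2 alpha phosphorylation, ATF4 translation or Xbp1 splicing, which act after or outside transcript abundance.

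Response elements known for the 2 branches were searched for in the promoters of the 10 genes, and 5 held a match (Hspa5, Herpud1, Asns, Chac1 and Trib3). Matches before the start in the RefSeq promoter table (build GRCm38.p6, 250 bases before to 50 after the start) are shown here, 5′ to 3′ along the gene, to show the letters found. Capitals mark the fixed letters of the motif, and all 10 genes had an entry. The ER stress response element, CCAAT and CCACG with 9 free bases between them, is bound by ATF6 with the factor NF-Y. ERSE-II is its compact form, ATTGG and CCACG with 1 free base between them. The composite element of ATF4 with a C/EBP partner is TGATGNAA.
Hspa5: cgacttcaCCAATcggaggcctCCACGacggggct
Herpud1: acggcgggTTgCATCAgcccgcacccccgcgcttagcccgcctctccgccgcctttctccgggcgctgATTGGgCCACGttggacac
Asns: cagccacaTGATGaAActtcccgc
Chac1: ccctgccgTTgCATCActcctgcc
The Hspa5 stretch is chr2:34772017-34772051 on the plus strand and holds the ER stress response element 65 to 47 bases before the start. That of Herpud1 is chr8:94386309-94386395 on the plus strand and holds both ERSE-II and, on the opposite strand, the ATF4 composite element. Those of Asns (chr6:7693217-7693240, minus strand) and Chac1 (chr2:119351041-119351064, plus strand) hold the ATF4 composite element, in Chac1 on the opposite strand. Trib3 has the match TTACATCA on the opposite strand, from 14 bases after the start. The starts used here are those of RefSeq and differ from the gene coordinates given below. By those coordinates, the Hspa5 and Asns stretches lie inside the gene and the Trib3 match lies before it.

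Searched on both strands, the ER stress response element was found in 1 of the 10 genes and in 0.119% of all 32851 promoters, and ERSE-II in 1 of 10 and 0.0365%. The ATF4 composite element was found in 4 of 10 and in 3.97% of all promoters. The element TGACGTGG, bound by XBP1 and ATF6, was found in 0 of 10 and in 0.676%. In these genes no match overlapped another. A match is a description of these letters, and a missing match says only that the exact letters are not in this window.

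In the libraries, Ghr, the targeted gene, was at 72.9 to 130 FPKM in Flox and 12.99 to 20.1 in Ad-GHRKO (limma adjusted p = 6.54e-05). FPKM counts fragments per kilobase of gene, scaled to the size of the library, so levels can be compared between genes. Recovered depth was 14615449 to 19269127 reads per library, and the 10 genes had between 65 reads (Chac1) and 16537 reads (Hspa5) in a library. Transcripts of adipocytes were abundant in every library, with Fabp4 at 2134 ± 570 FPKM in Flox and 2101 ± 724 in Ad-GHRKO (SD, n = 5 each). By reads on 25 skeletal muscle genes, 3 libraries stood apart, with a share of 13.1% in Ad-GHRKO 1, 7.62% in Flox 5 and 5.05% in Flox 3. This share was 0.184% in Ad-GHRKO 5 and 0.00666% to 0.0182% in the other 6. The 3 that stood apart are called muscle-rich, and results that rest on them are given with and without them. Together with Ad-GHRKO 5 they are called the 4 libraries with muscle reads, although all 10 held some. In bulk tissue, fewer cells of a type and less RNA per cell cannot be told apart.

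Hspa5 was the most abundant of the 10 genes in Flox, at 107 ± 20.1 FPKM (SD, n = 5). It was followed by Xbp1 at 79.0 ± 9.82, Atf4 at 67.5 ± 12.3, Herpud1 at 38.6 ± 5.69 and Asns at 24.3 ± 7.26 FPKM. Lower levels were held by Ddit3 (14.5 ± 4.35), Dnajb9 (11.5 ± 1.77), Ppp1r15a (7.87 ± 2.08), Trib3 (5.22 ± 1.46) and Chac1 (4.68 ± 2.70 FPKM). Among neighbours in this order, only Atf4 and Herpud1 had Flox ranges that did not overlap. Trib3 exceeded Chac1 in 3 of 5 Flox libraries, and Ddit3 exceeded Dnajb9 in 3 of 5. In Ad-GHRKO the order of Xbp1 and Atf4 was kept in 1 of 5 libraries, and that of Ddit3 and Dnajb9 in 1 of 5.

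**Figure D1:**
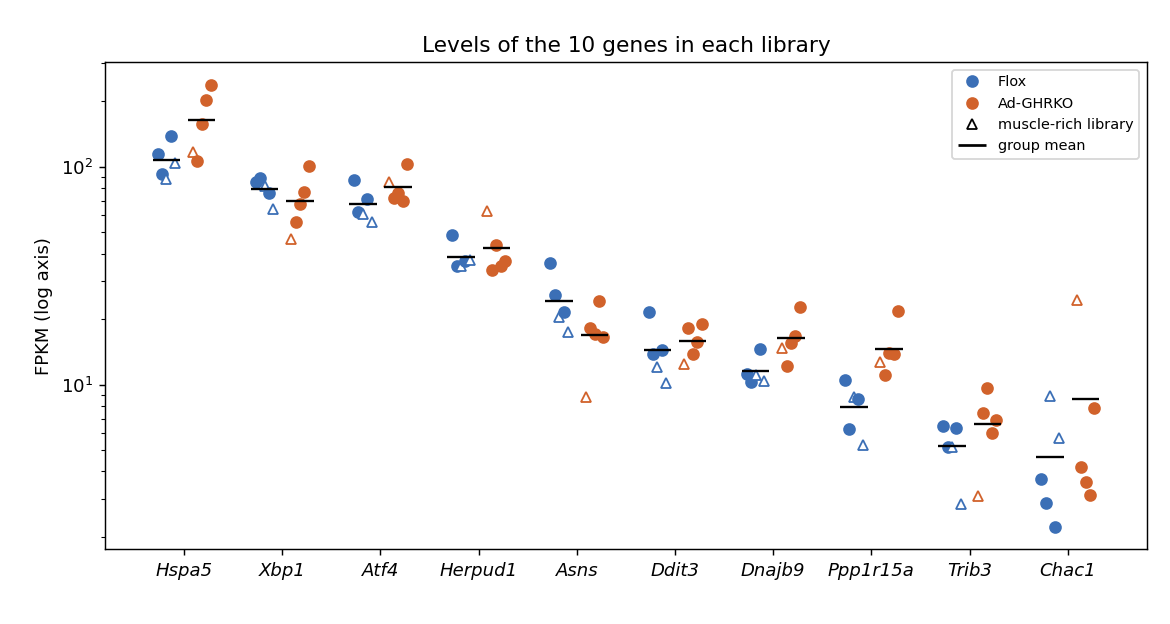
FPKM (log axis) of each of the 10 genes in each library, ordered by the Flox mean, with Flox in blue, Ad-GHRKO in orange, muscle-rich libraries as open triangles and group means as black bars. Ppp1r15a is the gene whose groups do not overlap, and the highest Chac1 value, 24.4 FPKM, belongs to Ad-GHRKO 1.

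The comparison of the genotypes asks whether these stress transcripts differ when adipose tissue of old mice lacks the growth hormone receptor. Of the 10 genes, 0 passed limma at an adjusted p of 0.05, where 2.19% of the 12785 genes tested did (0.774% as higher and 1.42% as lower in Ad-GHRKO). At an unadjusted p of 0.05, 3 passed, all higher in Ad-GHRKO (Ppp1r15a, Dnajb9 and Hspa5), where 16.4% of all genes tested passed in either direction and 7.86% as higher. The median log2 change of FPKM + 1 was 0.26 over the 10 genes and 0.04 over all genes tested, and 8 of the 10 changes were positive where 55.7% of all were. The groups did not overlap for 1 of the 10, Ppp1r15a, and for 4.97% of all genes tested (1.62% as higher and 3.35% as lower in Ad-GHRKO). With voom on recovered reads, 1 of the 10 passed, again Ppp1r15a. Rescaling the libraries to TPM moved the median of all genes to 0.15 and that of the 10 genes to 0.40, with 1 of 10 past the test. The median of the 10 genes was lower in other settings, at 0.09 with array weights, 0.12 without the 4 libraries with muscle reads and 0.15 without Flox 5.

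**Figure D2:**
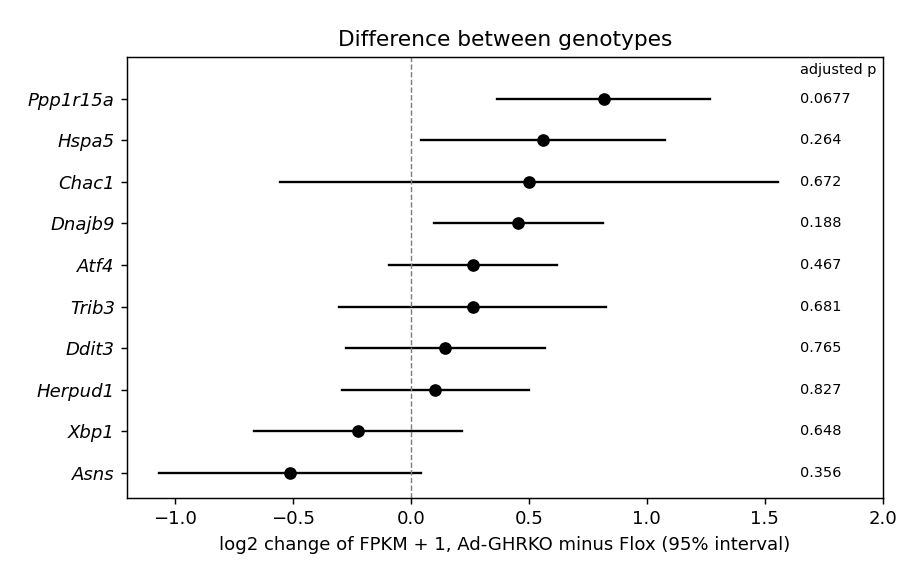
Log2 change of FPKM + 1 between Ad-GHRKO and Flox (5 libraries each) for the 10 genes, with limma's 95% interval as a bar and the adjusted p at the right. The intervals of Ppp1r15a, Hspa5 and Dnajb9 lie above 0, and no adjusted p is under 0.05.

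Ppp1r15a encodes GADD34, the stress-induced subunit that directs protein phosphatase 1 to eIF2 alpha and so ends the translational arrest (ENSMUSG00000040435, chromosome 7, 45522916 to 45526268, minus strand, GRCm38). Its levels were 10.5, 6.24, 8.75, 8.59 and 5.31 FPKM in Flox 1 to 5 and 12.7, 11.04, 13.9, 13.9 and 21.8 FPKM in Ad-GHRKO 1 to 5. Every Ad-GHRKO library was above the highest Flox library, and Ad-GHRKO 5 was far above the other 4. The means were 7.87 ± 2.08 and 14.7 ± 4.15 FPKM (SD, n = 5 each), a ratio of 1.86. The log2 change was 0.82 (SE 0.21, 95% interval 0.37 to 1.27), with an unadjusted p of 0.00202 and a limma adjusted p of 0.0677. The adjusted p crossed 0.05 in 7 of 23 alternatives, among them voom on recovered reads (0.0397), the skeletal muscle score as a covariate (0.0432) and leaving out Ad-GHRKO 1 (0.0392). Without the 3 muscle-rich libraries the log2 change was 0.76 (adjusted p = 0.0972). Dropping only Ad-GHRKO 5 gave 0.67 (limma adjusted p = 0.132), and dropping only Flox 2 gave 0.75 (0.168). The smallest change of the alternatives, 0.58 (0.119), came from dropping Ad-GHRKO 5 together with those 3. Exons of Ppp1r15a share bases with Tulp2 on the other strand, which was at 0.0867 to 0.414 FPKM. Whether reads were counted by strand was not stated.

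Ppp1r15b encodes the constitutive counterpart, CReP, and is a measure of the phosphatase not induced by stress. It was at 23.0, 15.3, 15.2, 16.8 and 11.6 FPKM in Flox against 10.6, 16.3, 18.6, 18.5 and 29.6 in Ad-GHRKO. Ppp1r15b groups overlapped widely, and the lowest and the highest value were both in Ad-GHRKO. The log2 ratio of Ppp1r15a to Ppp1r15b within a library, each with 1 FPKM added, was -0.97 ± 0.17 in Flox and -0.30 ± 0.30 in Ad-GHRKO (SD, n = 5 each). All 5 Ad-GHRKO ratios were above the highest Flox ratio, a difference of 0.68 (exact two-sided permutation p = 0.00794, the smallest 5 against 5 allow, and 0.0238 adjusted over the 3 ratios tested). Without the 3 muscle-rich libraries the difference was 0.61 and the exact permutation p = 0.0286, the smallest that design allows (0.0857 adjusted). This ratio was chosen with the difference of Ppp1r15a known and is not independent of it. Exons of Ppp1r15b share bases with Gm26616 on the other strand.

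Immediate early genes respond fast to stimuli and to tissue handling. Of 20 such genes, 18 were tested, 6 rose and 12 did not pass, where 0.774% of all genes tested rose, and the median log2 change was 1.09. Their summed level was 189 to 389 FPKM in Flox against 448 to 1113 in Ad-GHRKO, higher in 5 of 5 libraries, with none of the 20 at 0 in any library. The highest sum was in Ad-GHRKO 5, the library with the highest FPKM of Ppp1r15a, Hspa5, Dnajb9, Atf4 and Xbp1, before any rescaling between libraries. Dusp1 had the highest mean over all libraries of the 6 that rose, at 29.2 ± 4.58 and 85.1 ± 26.9 FPKM (adjusted p = 0.0134), and Klf2 was at 45.1 ± 23.3 and 77.7 ± 21.1 FPKM (0.209). Of 8 cytosolic heat shock genes, none passed limma, and the median log2 change was 0.30. At an unadjusted p of 0.05, 2 of them were higher, where 7.86% of all genes tested were. The part of these transcripts in the difference of Ppp1r15a was not tested.

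Atf4 encodes the transcription factor at the centre of the integrated stress response (ENSMUSG00000042406, chromosome 15, 80255184 to 80257541, plus strand). It was at 87.3, 62.1, 61.0, 71.2 and 55.9 FPKM in Flox 1 to 5, and at 85.6, 72.2, 75.7, 69.3 and 103 FPKM in Ad-GHRKO 1 to 5. The groups overlapped, since Flox 1 was above 4 Ad-GHRKO libraries. Its log2 change was 0.26 (95% interval -0.09 to 0.62, adjusted p = 0.467). The Atf4 change was 0.26 with the muscle score as a covariate, 0.12 without the 3 muscle-rich libraries and -0.0080 without the 4 with muscle reads. That last fit also leaves out Ad-GHRKO 5, which held the highest Atf4 in FPKM not rescaled between libraries. Ddit3, which encodes CHOP (ENSMUSG00000025408, chromosome 10, 127290774 to 127296288, plus strand), was at 14.5 ± 4.35 and 15.8 ± 2.83 FPKM (log2 change 0.15, 95% interval -0.27 to 0.57, adjusted p = 0.765). Leaving out 1 library gave a Ddit3 change from 0.04 (Flox 5 left out) to 0.30 (Flox 1 left out), and it was 0.08, 0.10 and 0.22 when Ad-GHRKO 5, 2 or 1 was the one left out. Flox held both its lowest value (10.2 FPKM in Flox 5) and its highest (21.7 FPKM in Flox 1). Without the 3 muscle-rich libraries the Ddit3 change was 0.02 (limma adjusted p = 0.963). Ddit3 shares exon bases with Mars on the other strand, which was at 16.6 to 23.4 FPKM, and with a second annotated Ddit3 locus, so its level is uncertain.

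The log2 ratio of Ddit3 to Atf4 was -2.17 ± 0.15 in Flox and -2.29 ± 0.29 in Ad-GHRKO (difference -0.12, exact two-sided permutation p = 0.484). The ranges of this ratio overlapped, and both its lowest value (-2.69 in Ad-GHRKO 1) and its highest (-1.93 in Ad-GHRKO 2) were in Ad-GHRKO. Trib3 encodes a pseudokinase induced by ATF4 and CHOP that feeds back on both (chromosome 2, 152337422 to 152344032, minus strand). Its levels were 6.50, 5.19, 5.20, 6.36 and 2.84 FPKM in Flox against 3.09, 7.46, 9.67, 5.98 and 6.86 in Ad-GHRKO. The 2 lowest values of Trib3 were in the muscle-rich libraries Flox 5 and Ad-GHRKO 1, and 3 of 5 Ad-GHRKO libraries were above the highest Flox library. Its log2 change was 0.26 (95% interval -0.30 to 0.83, adjusted p = 0.681), and it ranged from 0.10 without Flox 5 (adjusted p = 0.906) and 0.12 without Ad-GHRKO 3 (0.901) to 0.47 without Ad-GHRKO 1 (0.163). Without the 3 muscle-rich libraries the Trib3 change was 0.26 (limma adjusted p = 0.324).

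Asns, asparagine synthetase and a standard ATF4 target, was the gene with the lowest log2 change of the 10 (ENSMUSG00000029752, chromosome 6, 7675169 to 7693254, minus strand). Flox 1 to 5 held 36.1, 25.8, 20.4, 21.6 and 17.4 FPKM, and Ad-GHRKO 1 to 5 held 8.81, 18.3, 17.02, 24.2 and 16.5 FPKM. The groups overlapped, with the lowest value in Ad-GHRKO 1, which is muscle-rich, and the 2 highest in Flox. The log2 change was -0.51 (95% interval -1.07 to 0.05, adjusted p = 0.356). It was -0.31 without Ad-GHRKO 1 (adjusted p = 0.340) and -0.51 without the 3 muscle-rich libraries (adjusted p = 0.152). Asns thus lay on the other side of 0 from Ppp1r15a, Atf4, Ddit3, Trib3 and Chac1, although no interval of these 5 but that of Ppp1r15a excluded 0.

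Chac1 encodes an enzyme that degrades glutathione and is induced through ATF4 (ENSMUSG00000027313, chromosome 2, 119351229 to 119354381, plus strand). In Flox 1 to 5 it was at 3.70, 2.88, 8.92, 2.23 and 5.68 FPKM, and in Ad-GHRKO 1 to 5 at 24.4, 4.20, 3.59, 3.11 and 7.86 FPKM. The 4 highest values were in the 4 libraries with muscle reads, 2 of each genotype, and all others were between 2.23 and 4.20 FPKM. Within those 4, Chac1 was not in the order of the muscle share. Ad-GHRKO 5 (0.184%) and Flox 3 (5.05%) were above Flox 5 (7.62%), and Ad-GHRKO 1 (13.1%) was highest. Its coefficient of variation was 57.7% in Flox and 104% in Ad-GHRKO, the widest of the 10 genes. The log2 change was 0.50 (95% interval -0.55 to 1.56, adjusted p = 0.672), and it was 0.06 without Ad-GHRKO 1 (adjusted p = 0.932) and 0.33 without Flox 4 (0.821). It was 0.48 without the 3 muscle-rich libraries (adjusted p = 0.292), 0.25 without the 4 with muscle reads (0.396) and 0.62 with the muscle score as a covariate (0.133). The summed level of the 25 muscle genes was 34.2 to 40984 FPKM in Flox against 67.9 to 70106 in Ad-GHRKO. Of these 25, 7 were tested and none passed. Ckm, Myh2, Myh4, Tnnc2, Pvalb, Myoz1 and Ckmt2 were each at 0 in at least 1 library. The part of muscle transcripts in the level of Chac1 was not tested.

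**Figure D3:**
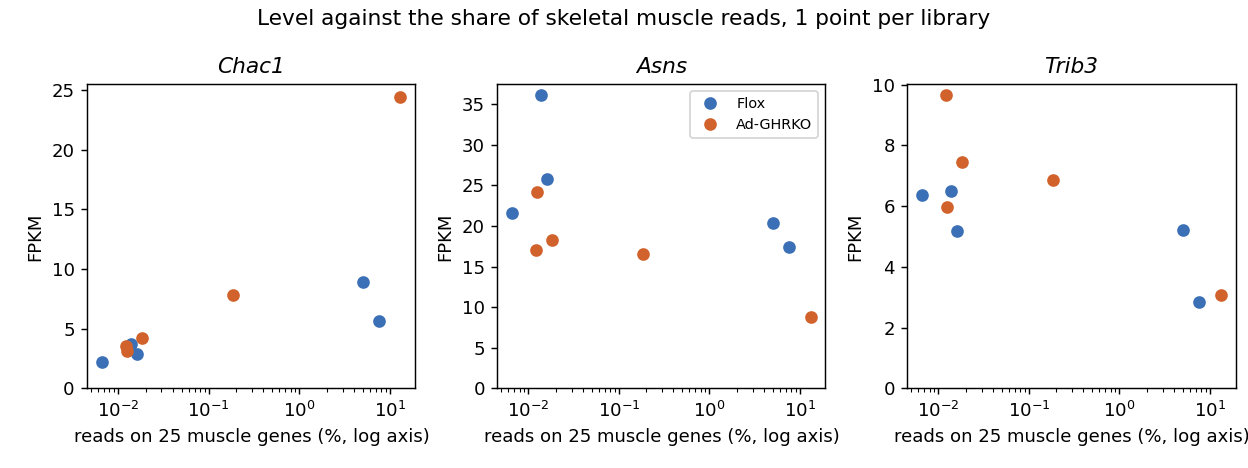
FPKM of Chac1, Asns and Trib3 against the percentage of a library's reads on 25 skeletal muscle genes (log axis), with 1 point per library, Flox in blue and Ad-GHRKO in orange. The rightmost point, at 13.1%, is Ad-GHRKO 1, which holds the highest Chac1 (24.4 FPKM) and the lowest Asns (8.81 FPKM).

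Hspa5 encodes BiP, the main Hsp70 chaperone of the ER, whose release from the sensors helps to activate them (ENSMUSG00000026864, chromosome 2, 34771970 to 34777547, plus strand). The Flox libraries had 115, 92.6, 88.0, 138 and 104 FPKM of Hspa5, and the Ad-GHRKO libraries 117, 107, 157, 203 and 238 FPKM. Ad-GHRKO 3, 4 and 5 were above every Flox library, while Ad-GHRKO 1 and 2 lay within the Flox range. The means were 107 ± 20.1 and 165 ± 56.0 FPKM (SD, n = 5 each), a ratio of 1.53. Its log2 change was 0.56 (SE 0.24, 95% interval 0.04 to 1.08), with an unadjusted p of 0.0357 and an adjusted p of 0.264, and 0 of 23 alternatives brought the adjusted p under 0.05. Its promoter holds the ER stress response element shown above.

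Hsp90b1 encodes GRP94, the Hsp90 chaperone of the ER, and is commonly induced with Hspa5. It was at 42.3 ± 10.3 FPKM in Flox against 52.4 ± 15.03 in Ad-GHRKO. The log2 ratio of Hspa5 to Hsp90b1 was 1.34 ± 0.24 in Flox and 1.61 ± 0.17 in Ad-GHRKO, a difference of 0.27 (exact two-sided permutation p = 0.0635, 0.0952 adjusted over the 3 ratios). One Ad-GHRKO ratio was above the highest Flox ratio, that of Flox 5. Without Flox 5 the difference was 0.38 and passed (exact permutation, adjusted p = 0.0238). It did not pass when any other library was left out (adjusted p up to 0.202). Without the 3 muscle-rich libraries it was 0.33 and did not pass (0.129). Exons of Hsp90b1 share bases with neighbouring genes, so its level is uncertain.

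Dnajb9 encodes ERdj4, a co-chaperone of BiP that restrains IRE1 (ENSMUSG00000014905, chromosome 12, 44205559 to 44210326, minus strand). It was at 11.3, 10.3, 11.1, 14.6 and 10.4 FPKM in Flox 1 to 5 and at 14.7, 12.2, 15.5, 16.7 and 22.8 FPKM in Ad-GHRKO 1 to 5. Only Ad-GHRKO 2 was below the highest Flox library, Flox 4. The means were 11.5 ± 1.77 and 16.4 ± 3.92 FPKM, a ratio of 1.42, and the log2 change was 0.46 (SE 0.16, 95% interval 0.10 to 0.81). The unadjusted p was 0.0171 and the adjusted p 0.188, and 0 of 23 alternatives brought it under 0.05. Its promoter window held none of the 4 motifs. A microRNA gene, Mir5627, lies on exon bases of Dnajb9 on the other strand.

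Xbp1, the transcription factor of the IRE1 branch, had a negative log2 change (ENSMUSG00000020484, chromosome 11, 5520659 to 5525893, plus strand). It was at 85.2, 88.8, 81.8, 75.6 and 63.7 FPKM in Flox against 46.5, 55.7, 67.8, 76.8 and 101 in Ad-GHRKO. The Ad-GHRKO libraries enclosed the Flox range on both sides, with a coefficient of variation of 30.2% against 12.4%. The log2 change was -0.22 (95% interval -0.66 to 0.22, adjusted p = 0.648), and it went from -0.37 without Ad-GHRKO 5 (0.424) to -0.09 without Ad-GHRKO 1 (0.767). Without the 3 muscle-rich libraries the Xbp1 change was -0.17 (limma adjusted p = 0.609). Xbp1 is also abundant in plasma cells, and the summed level of 12 B and plasma cell genes was 875 to 3492 FPKM in Flox against 554 to 2451 in Ad-GHRKO. Of these 12, 10 were tested, none passed, and none was at 0 in any library. With their score as a covariate the log2 change of Xbp1 was -0.19 (adjusted p = 0.620).

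Herpud1 encodes an ER membrane protein of the degradation pathway (ENSMUSG00000031770, chromosome 8, 94386438 to 94395377, plus strand). It was at 48.6, 34.9, 35.2, 37.0 and 37.3 FPKM in Flox against 62.7, 33.6, 43.5, 35.1 and 37.0 in Ad-GHRKO. In each genotype 1 library was high, Flox 1 and the muscle-rich Ad-GHRKO 1, and the rest lay between 33.6 and 43.5 FPKM. The log2 change was 0.10 (95% interval -0.29 to 0.50, adjusted p = 0.827), and it was -0.096 without the 3 muscle-rich libraries (adjusted p = 0.714). With 1 library left out, the Herpud1 change went from -0.044 (Ad-GHRKO 1) to 0.16 (Ad-GHRKO 4), 0.18 (Ad-GHRKO 2) and 0.19 (Flox 1).

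How the 10 genes varied among libraries was described by each library's deviation from its genotype mean on the log2(FPKM + 1) scale. Of 45 pairs of genes, 33 had a positive Pearson r over the 10 libraries, with a median of 0.33, and 36 were positive without the 3 muscle-rich libraries (median 0.36, 7 libraries). Hspa5 and Dnajb9 had the highest r, 0.89 (Spearman 0.87), and 0.94 without the muscle-rich libraries. Atf4 and Ppp1r15a had an r of 0.82, and 0.93 without them. The lowest r was that of Asns and Chac1, -0.76, which was -0.06 without the muscle-rich libraries, so it rested on them. Likewise Trib3 and Asns went from 0.70 to -0.29. These points share library, depth and muscle reads, and the values are descriptions with no test. The share of positive pairs and the median r over all genes tested are not given here. The counts therefore do not show that the 10 genes vary together more than other genes do.

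**Figure D4:**
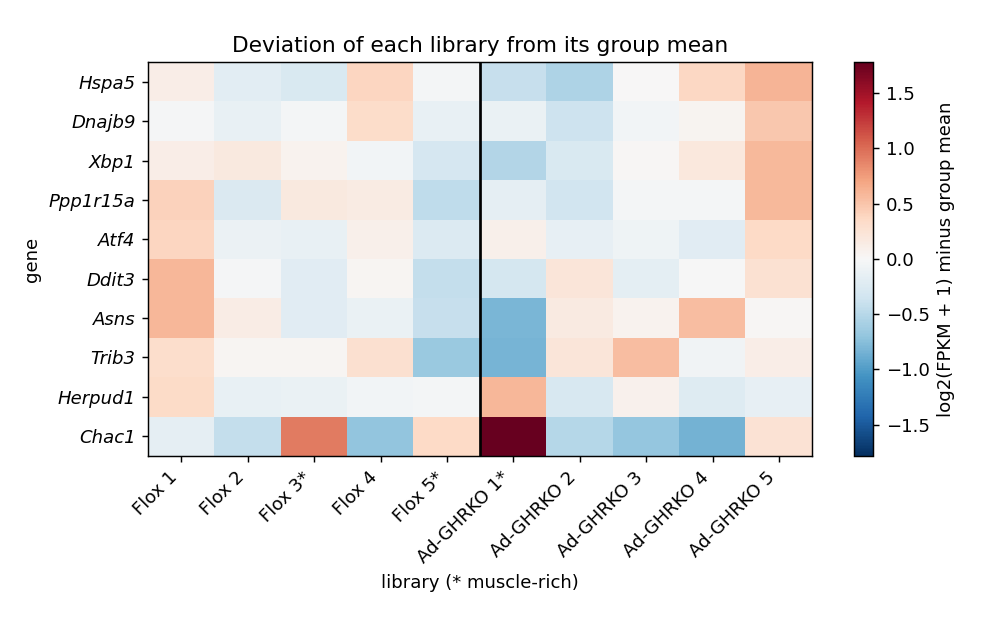
Deviation of log2(FPKM + 1) from the genotype mean for the 10 genes (rows) in the 10 libraries (columns), red above and blue below, with muscle-rich libraries starred. Ad-GHRKO 5 is red for Hspa5, Dnajb9, Xbp1, Ppp1r15a and Atf4, and Chac1 is darkest in Ad-GHRKO 1.

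Ad-GHRKO 5 held the highest value of all 10 libraries for 5 of the genes, and Flox 1 the highest Flox value for 6. Flox 5 held the lowest value of all for Atf4, Ddit3, Ppp1r15a and Trib3. These are FPKM as deposited, not rescaled between libraries. The factor of median ratio scaling, which is high where the typical gene is high, was highest in Ad-GHRKO 5 (1.12). This factor was 1.06 in Flox 1, 0.832 in Flox 5 and lowest in Ad-GHRKO 1 (0.755). The share of all genes at their highest or lowest in each library is not given here. The genes tested were also ranked by likeness, leaving out predicted, clone-named, Rik, receptor and immunoglobulin segment genes. Only the highest r for Hspa5 and for Atf4 are given, picked from the 12785 genes tested less those classes. Such picking by itself favours high values, the spread of r over all genes is not given here, and no likeness was tested. In this ranking the transcripts whose deviations were most like those of Hspa5 were Mmp3 (r = 0.96), Egr1 (0.95), Edn1 (0.94), Rrp8 (0.93) and Ier2 (0.92). Mmp3 is a matrix metalloproteinase, Edn1 encodes endothelin, and Egr1 and Ier2 are immediate early genes. With the same genes left out, those most like Atf4 were Rgs2 (r = 0.94), Ptges3-ps (0.93), Jmjd6 (0.93), Zfp963 (0.92) and Srsf1 (0.92), each over 10 libraries. Ptges3-ps is a pseudogene and shares sequence with its parent gene, so its level is uncertain.

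Around the 10 genes, the wider pathway was read from 5 lists. Over all genes tested, 2.19% passed limma, 7.86% were higher at an unadjusted p of 0.05 and 55.7% had a positive change. The sensors and their processing proteases made 9 genes, of which 9 were tested and 0 passed limma (2 at an unadjusted p of 0.05), with a median log2 change of 0.24 against 0.04 for all genes tested. All 9 changes were positive. Eif2ak3, which encodes PERK, had a log2 change of 0.24 (adjusted p = 0.574), Ern1, which encodes IRE1, 0.27 (0.506), and Atf6 0.22 (0.414). The most changed was Creb3l2, an ER-anchored transcription factor of secretory cells, at 9.35 ± 1.57 and 14.8 ± 3.76 FPKM (log2 change 0.58, adjusted p = 0.161). Creb3l2 passed in 6 of 23 alternatives, among them without the 3 muscle-rich libraries. Creb3l1, its relative, was at 13.3 ± 3.88 and 20.4 ± 6.62 FPKM (adjusted p = 0.297).

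Of 15 genes for the eIF2 alpha kinases, eIF2, its exchange factor eIF2B and linked factors, 0 passed limma (1 at an unadjusted p of 0.05), with a median log2 change of 0.14, which was 0.05 without Ad-GHRKO 5, 0.06 without Flox 5 and 0.09 without Ad-GHRKO 2. Impact, which encodes an inhibitor of the amino acid sensing kinase GCN2, was at 10.2 ± 1.32 FPKM in Flox against 13.6 ± 2.11 in Ad-GHRKO. Its groups did not overlap, and its adjusted p was 0.183. Eif2s1, the gene of eIF2 alpha itself, was at 8.65 ± 0.543 and 11.3 ± 3.44 FPKM (adjusted p = 0.425). Eif2ak3 is in this list and in that of the sensors.

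Of 40 further genes of the ATF4 pathway, 34 were tested, 1 rose, 1 fell and 32 did not pass. Over all genes tested, 0.774% rose and 1.42% fell. The median log2 change of the list was 0.08, and 19 of 34 changes were positive, where 55.7% of all were. The median was between 0.02 (without Flox 3) and 0.12 (without Ad-GHRKO 5) when 1 library was left out. Eif4ebp1, which encodes the translation repressor 4E-BP1, fell: its mean was 166 ± 20.4 FPKM in Flox against 87.5 ± 13.8 in Ad-GHRKO (log2 change -0.92 with SE 0.15, limma adjusted p = 0.0115). Its Flox libraries held 182, 194, 158, 151 and 148 FPKM and its Ad-GHRKO libraries 76.7, 99.3, 85.2, 104 and 72.5 FPKM. The Eif4ebp1 groups were well apart, and the call held in 22 of 23 alternatives, the exception being the replicate block (adjusted p = 0.0642). Slc7a1, a carrier of cationic amino acids, rose: its mean was 0.967 ± 0.234 FPKM in Flox against 2.11 ± 0.512 in Ad-GHRKO (log2 change 0.65 with SE 0.15, limma adjusted p = 0.0448). Its Flox mean lay under the filter's 1 FPKM, and 5 libraries at that level, the size of 1 group, suffice to pass the filter. Slc7a1 has no value under a filter of 5 FPKM. The call of Slc7a1 held in 10 of 22 alternatives. It ended when any library but Ad-GHRKO 1 was left out (adjusted p up to 0.124), with no filter (0.133), with a pseudocount of 0.1 (0.0506) and with the replicate block (0.165). Nars, asparaginyl-tRNA synthetase, was at 24.4 ± 0.917 and 34.1 ± 4.76 FPKM with no overlap of the groups (adjusted p = 0.0769). Nars passed in 8 of 23 alternatives, among them without the 3 muscle-rich libraries (limma adjusted p = 0.0434), and its adjusted p ranged up to 0.223. The most abundant of the list, the glutamine carrier gene Slc1a5, was at 330 ± 42.8 and 336 ± 104 FPKM (adjusted p = 0.973).

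**Figure D5:**
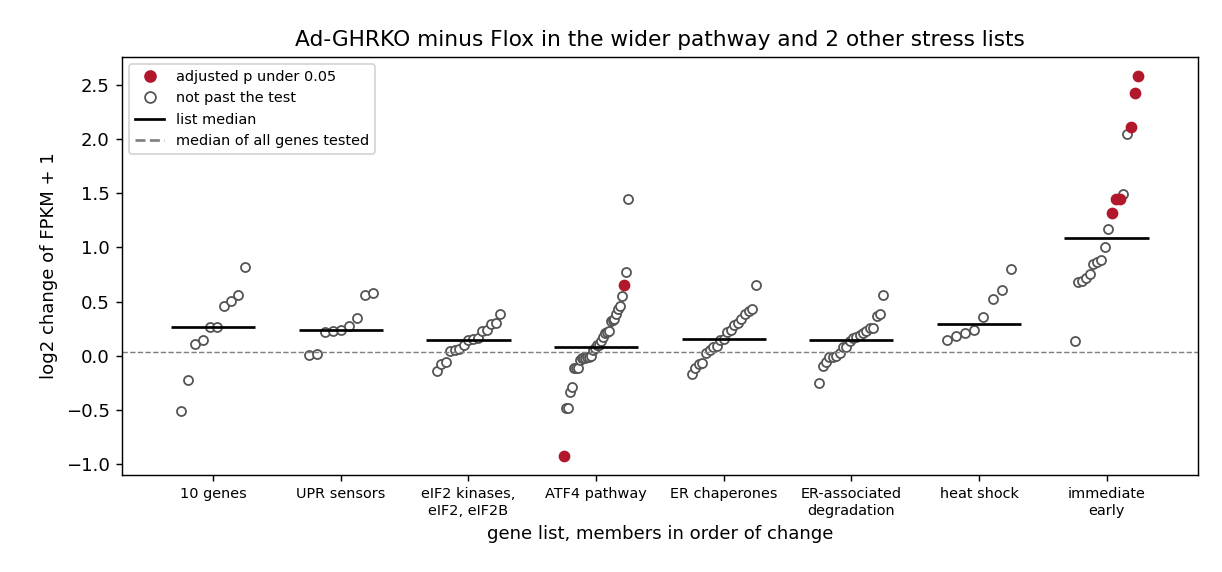
Log2 change of FPKM + 1 (Ad-GHRKO minus Flox) of each tested gene, by list, with genes at an adjusted p under 0.05 in red, list medians as black bars and the median of all genes tested as a dashed line. None of the 10 genes is red, Slc7a1 and Eif4ebp1 are red in the ATF4 list, and the immediate early list has 6 red points and a median of 1.09.

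Among 19 ER chaperones and folding enzymes, 0 passed limma, and 2 were higher at an unadjusted p of 0.05, where 7.86% of all genes tested were. Their median log2 change was 0.15, and 15 of 19 were positive, where 55.7% of all were. Their median was 0.05 without Ad-GHRKO 5, 0.10 without Flox 5, 0.25 without Flox 4 and 0.30 without Ad-GHRKO 1. Sdf2l1, an ER stress-induced partner of BiP, was at 21.3 ± 4.21 FPKM in Flox against 34.3 ± 7.29 in Ad-GHRKO (log2 change 0.66, adjusted p = 0.109). Hyou1, an exchange factor of BiP, was at 14.8 ± 1.97 and 20.0 ± 4.59 FPKM (adjusted p = 0.278). Calr, calreticulin and the most abundant of the list, was at 203 ± 42.6 and 182 ± 42.3 FPKM (adjusted p = 0.742). Of 20 genes of ER-associated degradation, 0 passed limma (2 at an unadjusted p of 0.05), with a median log2 change of 0.15, which was 0.07 without Ad-GHRKO 5 and 0.08 without Flox 5. Ube2j1, its membrane-bound ubiquitin-conjugating enzyme, was at 19.8 ± 3.30 and 30.0 ± 7.41 FPKM (adjusted p = 0.150). Sel1l, the adaptor of the ubiquitin ligase HRD1, was at 14.8 ± 1.51 and 19.9 ± 3.91 FPKM (0.246).

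Other cell types were read from marker lists beside these values. At an unadjusted p of 0.05, 7.86% of all genes tested were higher and 1086 of 12785 lower. Over all genes tested, 55.7% of changes were positive, and the groups did not overlap, as lower, for 3.35%. Of 9 macrophage genes none passed limma (1 higher at an unadjusted p of 0.05, all 9 changes positive, median log2 change 0.38), and their sum was 652 to 1963 FPKM in Flox against 951 to 2466 in Ad-GHRKO, with none at 0. Lyz2 was at 525 ± 289 and 777 ± 395 FPKM. Of 9 adipocyte genes none passed limma (3 lower and 1 higher at an unadjusted p of 0.05, 1 lower with no overlap of the groups, median log2 change -0.27), with sums of 6652 to 10443 FPKM in Flox against 3402 to 9644 in Ad-GHRKO, the lowest being Ad-GHRKO 1. The 7 epithelial keratin and adhesion genes that had a row summed to at most 4.52 FPKM in any library, and none was abundant enough to be tested. The part of these cells in the stress transcripts was not tested.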

How the data were processed

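FPKM values, 1 column per library, were deposited by the authors, per the file headers. Per the labels' protocols the libraries came from oligo(dT)-selected, fragmented RNA with a marked second strand. Which aligner and counter were used, and with what strand setting, was not given in the sources used here. GRCm39 is named in the submitters' processing notes, but 31109 of 31253 identifiers found in GENCODE M21 (99.5%) had its exact GRCm38 coordinates, and coordinates are given as GRCm38.

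A gene was tested if 5 or more libraries held 1 FPKM or more (12785 genes). The test was limma 3.58.1 (R 4.3.3), two-sided, with the prior variance following mean expression, run on log2 values after adding 1 FPKM, and p-values were adjusted by Benjamini-Hochberg over all genes tested, at 0.05. Fold changes on this scale understate those of low genes. Intervals are limma's at 95%. Ratios of genes within a library (3) had exact permutation tests over 252 assignments. Whole reads (tolerance 0.01) were recovered from FPKM and exon length for 99.4% to 99.5% of values, and voom on them was an alternative. The FPKM scale ties each value to its library's total, so a large share of muscle reads takes from the values of all other genes. Only limma on log2 values was tried on simulated data, which held planted changes and did not model the muscle-rich libraries. No 2 libraries were identical.

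The 10 genes, the 5 pathway lists, the marker lists, the ratios and the tests were chosen with earlier results of these data known. Named genes are Ghr, the 10 genes, from each pathway list the 3 with the smallest p and the most abundant, from each marker list the 2 most abundant, and the 5 genes most like Hspa5 and Atf4. Not all of these are named. Likeness was ranked without the gene classes stated above. Eif2ak3, Ern1, Atf6, Tulp2, Mars, Gdf15, Fgf21, Atf3, Vldlr and Slc7a11 were chosen after their values were seen. Python 3.11.15 with pandas 2.3.3 and matplotlib 3.10.9 was used for tables and figures. Fits without the 3 muscle-rich and the 4 libraries with muscle reads were added after seeing the data.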

Additional observations from a re-analysis of the deposited data

Results flagged for a closer look

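In 8 of 68 groups of 5 libraries examined, 1 library was far from the other 4 by Dixon's criterion for a gap relative to the range (0.71), where chance gives about 1 in 20. Among the 10 genes these were Ppp1r15a in Ad-GHRKO, with 21.8 FPKM in Ad-GHRKO 5, and Chac1 in Ad-GHRKO, with 24.4 FPKM in Ad-GHRKO 1, which is muscle-rich. Herpud1 stood high in Flox 1 at 48.6 FPKM, and Dnajb9 in Flox 4 at 14.6 FPKM. The log2 ratio of Ppp1r15a to Ppp1r15b was 0.24 in Ad-GHRKO 1, apart from -0.39 to -0.52 in the other 4. In the wider lists, Impact was low in Flox 5 (7.88 FPKM), and in Ad-GHRKO 1 both Sel1l (13.2 FPKM) and Derl1 (55.5 FPKM) were low. Of the 8, 4 were values of Ad-GHRKO 1.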

How the results depend on the processing

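The count of changed genes over all genes tested was 280. It was 117 with no filter, 547 with median ratio scaling, 85 with the replicate block, 1695 with array weights, 845 with the skeletal muscle score as covariate, 777 when the 3 muscle-rich libraries were dropped, 675 when Ad-GHRKO 5 was dropped with them (the 4 libraries with muscle reads), and 116 to 1185 when 1 library was left out, the highest without Ad-GHRKO 1. The share of lower calls was 64.6%, and 39.7% with TPM rescaling, 40.8% with array weights, 34.3% without Ad-GHRKO 1, and 51.4% and 46.4% without the 3 and the 4 libraries. The median change of all genes, 0.04, ranged from -0.0035 (without Flox 5) to 0.10 (without Ad-GHRKO 1) over single libraries left out. Of the 10 genes, 1 passed, Ppp1r15a, with median ratio scaling (adjusted p = 0.0326), TPM rescaling (0.0358), array weights (0.0229), the muscle score (0.0432) or the B and plasma cell score (0.0308) as covariate, voom (0.0397) and without Ad-GHRKO 1 (0.0392; 0 to 1 genes over single libraries left out). Its adjusted p ranged up to 0.186, with the replicate block. The other 9 passed in none of their alternatives. Changes of sign were Herpud1 with array weights (-0.071), without Ad-GHRKO 1 (-0.044, in a range up to 0.19 over single libraries) and without the 3 (-0.096) or 4 (-0.095) libraries, and Atf4 (-0.0080) and Ddit3 (-0.045) without the 4. In the ATF4 list 2 genes changed, and 1 with a pseudocount of 0.1, with no filter or with 5 FPKM, 0 with the replicate block, 4 with median ratio scaling, voom or without the 3 libraries, 5 with array weights or the muscle score, and 1 to 5 over single libraries. The 4 other lists had 0; the sensors had 1 with median ratio scaling, the muscle score or without the 3 or 4 libraries, 4 with array weights and 0 to 3 over single libraries. Degradation genes had 2 with median ratio scaling, 3 with array weights, 1 without the 3 libraries and 0 to 3 over single libraries, the eIF2 list 1 with array weights, and chaperones 0 to 1 over single libraries. The ratio of Ppp1r15a to Ppp1r15b had an adjusted exact p of 0.188 with the replicate block (difference 0.68) and 0.0857 without the 3 libraries (0.61). The unadjusted exact p, 0.0625 and 0.0286, was the smallest each of those designs gives. The difference in the ratio of Hspa5 to Hsp90b1 ranged from 0.22 to 0.38 over single libraries. Same-numbered libraries had correlations of deviations from -0.49 to 0.39, over 0.1 in 2 of 5 pairs, and 2 of 10 libraries were most like their own number, so the numbers were not taken as pairs. Chac1 falls under a filter of 5 FPKM and has no value there.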

Other observations

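Secreted products of the integrated stress response were mostly below the filter. Gdf15, a stress hormone of the TGF-beta family, was at 0.432 ± 0.197 FPKM in Flox against 1.32 ± 0.574 in Ad-GHRKO (SD, 5 libraries each), and its log2 change was 0.67 with no filter (limma adjusted p = 0.208). Fgf21, a hormone of fasting and stress, was at 0.381 ± 0.339 and 0.640 ± 0.374 FPKM (adjusted p = 0.761 with no filter). Slc7a11, the cystine carrier gene and an ATF4 target, was at 0 to 0.00754 FPKM in Flox against 0.0112 to 0.0353 in Ad-GHRKO, or 0 to 9 reads in a library (log2 change 0.02 with no filter, adjusted p = 0.436). Atf3, a transcription factor of this pathway that is also an immediate early gene, was at 10.10, 2.39, 6.50, 3.56 and 1.58 FPKM in Flox against 10.9, 7.40, 13.1, 7.69 and 40.2 in Ad-GHRKO, with a log2 change of 1.45 (adjusted p = 0.159). As for Ppp1r15a, its highest value was in Ad-GHRKO 5. Vldlr, a lipoprotein receptor induced by ATF4, was at 29.6 FPKM in Ad-GHRKO 1, which is muscle-rich, and at 8.11 to 14.3 FPKM in the other 9 (adjusted p = 0.907).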
